A study of Mus musculus with 15 samples.

Results

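Imprinted genes are expressed mainly from a single parental chromosome. The set described here holds 40 mouse genes given by name, and all 40 had a row among the 46517 genes of the count tables. Their loci, taken as the annotated gene body and 5 kb on either side, held 657 of the 360390 cytosine positions with at least 10 methylation calls in all 9 bisulfite libraries. At least 1 position was measured at 39 loci, and Phlda2 had none.

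The choice of parental copy is set by DNA methylation that is laid down in the egg or the sperm at a control region and then copied at each cell division onto the new DNA strand by DNMT1, the maintenance methyltransferase. A control region that is methylated on only 1 parental chromosome reads as intermediate methylation in a mixture of alleles. Many of the products act on growth: IGF2 promotes fetal growth, IGF2R clears IGF2, and CDKN1C is a cell cycle inhibitor needed in the developing kidney.

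Kidneys of C57BL/6 mice were profiled in 15 samples. Control samples at postnatal day 0 (P0) carried floxed alleles of Dnmt1 (Dnmt1 f/f), and the knockout samples (KO) at P0 carried the same floxed alleles with Six2Cre. Reduced representation bisulfite sequencing (RRBS), which reads cytosine methylation in CpG-rich restriction fragments, covered 3 control, 3 KO and 3 wild-type adult samples aged 6 weeks. Poly-A RNA sequencing covered 3 control and 3 KO samples at P0. The Six2 promoter drives Cre in nephron progenitors, so these cells and their descendants are targeted, while stroma, ureteric epithelium and endothelium are not. The labels name Six2-positive cells as the source, whereas the protocol describes DNA from whole kidneys. Nothing in the labels says that the samples of a group came from separate animals, so p-values measure the spread between these samples.

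Gene counts per RNA library summed to between 26773937 and 34102567. Methylation calls per RRBS library summed to between 18424875 and 88765177, with KO 3 the shallowest at a median of 4 calls per position. Dnmt1 itself was at 180.0, 156 and 188 CPM, counts scaled to a common library size with TMM factors, in controls 1 to 3 and 110, 111 and 93.7 CPM in KO 1 to 3. Every KO library lay below every control (log2 fold change -0.74, SE 0.12, edgeR adjusted p 0.00577). Marker genes of nephron cells moved with genotype: 7 of 7 proximal tubule markers, 5 of 5 podocyte markers and 4 of 5 markers of thick limb and distal tubule were lower in KO, with Calb1 of the last list higher. Of 5 nephron progenitor markers, Eya1 and Osr1 were higher, Cited1 was lower, and Six2 and Meox1 did not pass. Among the cells that Cre does not target, 3 of 4 endothelial markers (Pecam1, Cdh5 and Tek) were lower. Of 6 markers of ureteric bud and collecting duct only Ret was called, as higher. Of 4 leukocyte markers only Ptprc was called, also as higher. Six2 did not pass the test at 98.0, 107 and 41.4 CPM in controls against 84.4, 93.8 and 105 CPM in KO. Stromal Foxd1 rose from 22.6, 20.2 and 10.8 to 54.1, 59.0 and 52.4 CPM. The other stromal markers (Col1a1, Col1a2, Col3a1, Pdgfrb and Lum) did not pass, and the median log2 fold change of all 6 was -0.09. The summed level of 6 stromal markers was 4162 to 5057 CPM in controls and 3704 to 4364 CPM in KO. Kidneys are mixtures of cell types, so a change in the share of cells that express an imprinted gene and a change in its RNA per cell cannot be told apart.

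The sequences of 5 gene starts are shown because their sequenced CpGs lie directly upstream of an imprinted transcript, so the methylation values below belong to these letters. Each is the 250 bases before the RefSeq start (build GRCm38.p6), read 5′ to 3′ on the strand of the gene, with the CpGs measured in all 9 libraries in capitals. Mcts2 (chr2:152686898-152687147, plus strand) and Zrsr1 (chr11:22971755-22972004, plus strand) are retrogenes that carry a maternal germline mark at their start. Igf2r (chr17:12769707-12769956, minus strand), Meg3 (chr12:109540746-109540995, plus strand) and Mkrn3 (chr7:62420154-62420403, minus strand) lie in imprinted clusters that are controlled from elsewhere.
Mcts2: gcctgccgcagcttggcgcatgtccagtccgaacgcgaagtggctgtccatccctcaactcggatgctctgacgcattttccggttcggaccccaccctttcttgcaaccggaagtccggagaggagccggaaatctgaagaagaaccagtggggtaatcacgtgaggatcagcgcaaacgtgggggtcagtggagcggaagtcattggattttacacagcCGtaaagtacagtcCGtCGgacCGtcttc
Zrsr1: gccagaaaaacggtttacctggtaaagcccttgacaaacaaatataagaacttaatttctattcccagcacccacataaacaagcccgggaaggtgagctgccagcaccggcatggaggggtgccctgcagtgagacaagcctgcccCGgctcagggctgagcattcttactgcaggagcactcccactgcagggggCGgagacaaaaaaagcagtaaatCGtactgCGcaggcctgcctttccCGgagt
Igf2r: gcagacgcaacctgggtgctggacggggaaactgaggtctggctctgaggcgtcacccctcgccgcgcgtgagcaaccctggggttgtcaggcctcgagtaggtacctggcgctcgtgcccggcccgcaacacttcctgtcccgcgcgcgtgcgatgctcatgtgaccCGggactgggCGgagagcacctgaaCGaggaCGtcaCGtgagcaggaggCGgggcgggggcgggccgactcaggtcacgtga
Meg3: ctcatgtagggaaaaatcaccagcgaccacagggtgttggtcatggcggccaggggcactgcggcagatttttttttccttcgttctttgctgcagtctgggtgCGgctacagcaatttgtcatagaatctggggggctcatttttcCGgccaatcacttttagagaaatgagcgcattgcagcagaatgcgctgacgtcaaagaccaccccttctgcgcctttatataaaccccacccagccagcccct
Mkrn3: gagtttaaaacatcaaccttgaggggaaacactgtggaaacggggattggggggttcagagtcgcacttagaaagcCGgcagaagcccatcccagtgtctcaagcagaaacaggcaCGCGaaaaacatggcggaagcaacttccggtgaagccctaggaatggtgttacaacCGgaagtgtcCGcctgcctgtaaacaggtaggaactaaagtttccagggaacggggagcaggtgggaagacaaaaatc

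The upstream CpGs of Mcts2 stood at 53.2%, 51.3%, 51.5% and 52.3% on average in controls, from the farthest to the nearest to the start. In KO the same 4 CpGs averaged 30.5%, 27.7%, 31.3% and 41.3%. The second of them passed the test of single positions (adjusted p 0.0468). Over the 5 measured positions of this start the libraries read 69.6%, 55.4% and 32.0% in controls, 30.4%, 32.3% and 42.4% in KO and 52.2%, 75.6% and 55.8% in adults. The control and KO ranges overlapped, since control 3 lay below KO 2 and KO 3. At Zrsr1 the 6 positions measured upstream read 64.7%, 49.9% and 37.6% in controls and 26.3%, 52.3% and 55.5% in KO. Adults read 44.5%, 42.0% and 31.5% there, and the control and KO ranges again overlapped.

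At Mkrn3, which encodes a RING finger protein of the Prader-Willi cluster, neighbouring CpGs differed strongly. The CpG 134 bases before the start averaged 6.20% in controls, and the one 132 bases before it 39.9%. Across its 7 positions methylation was 35.3%, 32.8% and 39.4% in controls, 20.2%, 23.9% and 26.2% in KO and 34.1%, 35.6% and 36.0% in adults. The KO libraries lay wholly below the controls.

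The start of Igf2r gave 43.1%, 37.5% and 12.6% in controls, 33.1%, 30.2% and 29.9% in KO and 35.5%, 28.9% and 32.4% in adults over 6 positions. Control 3 was the lowest of all 9 libraries there, and the group means of control and KO were both 31.1%. Upstream of Meg3 the 2 measured CpGs averaged 43.4% and 49.4% in controls and 25.6% and 26.3% in KO, with adjusted p-values of 0.935 and 0.859.

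The letters TGCCGC, the motif that ZFP57 binds when its CpG is methylated, were searched on both strands (GCGGCA on the other) in windows of 300 bases from 250 before to 50 after each start. They occurred in 12 of 48 windows of the 31 members with an entry, and in 11.6% of the 32851 windows counted. Chromosome 18 was left out of this count. The 12 windows belong to 11 members, since overlapping windows of Mest were both counted. Mcts2 and Meg3 are among the members with a match. A match describes the letters only.

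In the RNA comparison, the question was how the expression of imprinted genes differed at P0 between kidneys with and without Six2Cre on the floxed Dnmt1 background. Magel2, Plagl1, Peg3, Impact, Kcnq1ot1, Meg3, Rian and Mirg rose in KO, by 1.43-fold (Impact) to 16.7-fold (Magel2). No member fell. Counts were tested with edgeR's quasi-likelihood test at a Benjamini-Hochberg adjusted p of 0.05 over 18132 genes. Of 39 members tested, 8 were higher, and the background was 6.36% of all genes tested. Members of the same cluster, such as Meg3, Rian and Mirg, need not vary independently, so counts of members are a description. The count of members lower was 0, also at an unadjusted p under 0.05 and with DESeq2 and limma voom, against a background of 8.23%. Rasgrf1, a guanine nucleotide exchange factor, was not tested, with 2, 2 and 1 counts in controls and 9, 3 and 7 counts in KO. Its KO values in CPM lay above all controls, at a depth too low for a test.

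The estimates of the other members also lay mostly above 0. In all, 29 estimates were positive and 10 negative, with a median log2 fold change of 0.41 against -0.00074 over all genes tested. Every KO library was above every control for 16 of the 39 tested members, and the background for this was 16.5%. None lay wholly below, where the background was 17.8%.

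**Figure D1:**
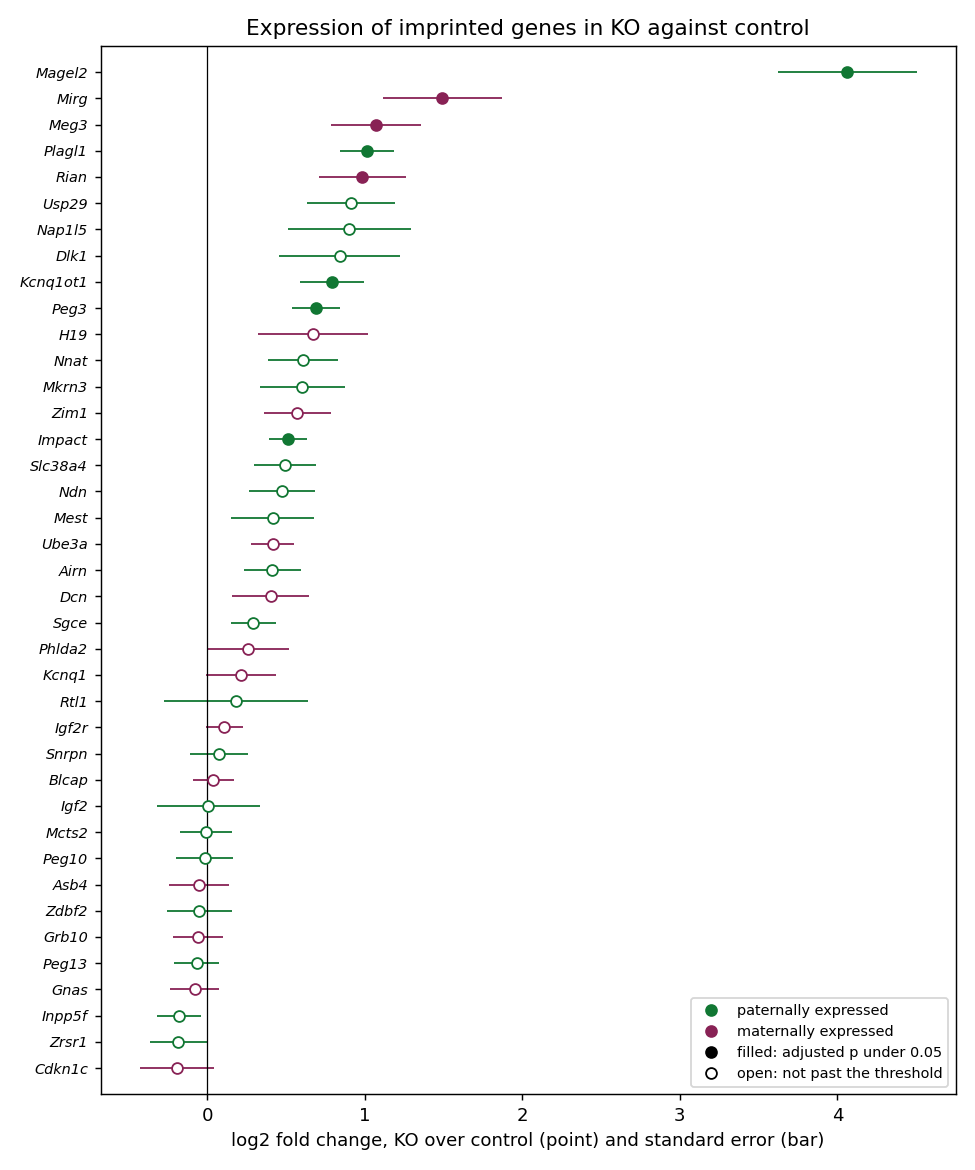
Log2 fold change of KO over control (x axis) for the 39 tested members (y axis), each with its standard error as a bar. Colour gives the parental copy listed as expressed, which was not measured here. The 8 filled points passed the test and all lie to the right of 0, with Magel2 apart from the others at 4.06.

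Magel2 is a paternally expressed gene of the Prader-Willi cluster (chr7:62376979-62381640) whose protein takes part in endosomal sorting and ubiquitin ligase activity, and it is known chiefly from the hypothalamus. It had 6, 12 and 12 counts in controls 1 to 3 and 113, 229 and 109 counts in KO 1 to 3. That is 0.183, 0.388 and 0.326 CPM against 3.52, 7.51 and 4.14 CPM. The lowest KO library lay well above the highest control (log2 fold change 4.06, SE 0.44, edgeR adjusted p 0.000862).

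Its neighbours in the same cluster did not pass the test. Ndn, which encodes the growth suppressor necdin, had 79.0, 83.3 and 46.1 CPM in controls and 90.5, 103 and 95.1 CPM in KO (log2 fold change 0.47, SE 0.21, edgeR adjusted p 0.186). Mkrn3 had 5.27, 5.89 and 3.37 CPM against 7.48, 6.00 and 8.59 CPM (edgeR adjusted p 0.189). For Ndn and Mkrn3 every KO library was above every control, although the margin at Mkrn3 was small. Snrpn, which encodes a splicing protein and whose start holds the germline mark of the cluster, gave 19.5, 14.8 and 13.5 CPM against 14.9, 17.9 and 17.6 CPM (log2 fold change 0.08, SE 0.18). Ube3a, a ubiquitin ligase that is imprinted in neurons, gave 49.5, 60.3 and 67.4 against 83.4, 80.4 and 72.8 CPM (edgeR adjusted p 0.0796). Of this cluster, then, Magel2 alone was called, and differences between its genes were not tested.

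Plagl1 (chr10:13090832-13131694), a zinc finger transcription factor that restrains proliferation, had 278, 247 and 185 CPM in controls and 514, 440 and 481 CPM in KO. The groups were clearly apart (log2 fold change 1.02, SE 0.17, edgeR adjusted p 0.00617). Plagl1 was called in 12 of 12 alternative analyses and Magel2 in 11 of the 11 that tested it.

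Peg3 (chr7:6703892-6730462), a paternally expressed zinc finger protein, had 372, 375 and 440 CPM in controls and 635, 720 and 563 CPM in KO (log2 fold change 0.69, SE 0.15, edgeR adjusted p 0.0201). Usp29, a deubiquitinase gene that shares the Peg3 control region, had 1.04, 1.17 and 0.897 against 1.96, 2.20 and 1.67 CPM. Its groups did not overlap, yet the edgeR adjusted p was 0.0661 (log2 fold change 0.91, SE 0.28). Zim1, a maternally expressed zinc finger gene beside Peg3, had 44.1, 42.0 and 73.5 CPM in controls and 81.1, 85.1 and 71.3 CPM in KO. Control 3 fell within the KO range there (edgeR adjusted p 0.119).

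Impact, a regulator of translation through GCN2, had 30.4, 34.1 and 37.6 CPM in controls and 48.6, 47.2 and 49.9 CPM in KO. The 3 KO libraries were close together and above the controls (log2 fold change 0.51, SE 0.12, edgeR adjusted p 0.0236).

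Kcnq1ot1 (chr7:143213111-143296547), the paternal antisense RNA that silences its cluster, had 14.96, 21.4 and 21.99 CPM in controls and 41.3, 30.8 and 28.8 CPM in KO (log2 fold change 0.79, SE 0.20, edgeR adjusted p 0.0348). The library kit was taken not to mark strand, in which case reads where Kcnq1ot1 overlaps Kcnq1 cannot be told apart between them. The host gene Kcnq1, a potassium channel subunit, had 20.1, 21.0 and 18.9 against 22.6, 30.8 and 16.3 CPM, with overlapping groups. Cdkn1c, which the Kcnq1ot1 RNA silences on the paternal copy, had 674, 738 and 386 CPM in controls and 494, 518 and 563 CPM in KO (log2 fold change -0.19, SE 0.24, edgeR adjusted p 0.672). Without control 3 Cdkn1c passed the test as lower (log2 fold change -0.43, edgeR adjusted p 0.0163). Phlda2, a growth restraining gene of the same cluster, had 3.37 to 4.62 CPM in controls and 3.74 to 5.93 CPM in KO.

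Meg3, Rian and Mirg are long noncoding RNAs made from the maternal copy of the Dlk1-Meg3 cluster on chromosome 12, and all 3 rose. Meg3 (chr12:109540996-109571729) had 46.0, 60.2 and 86.9 CPM in controls and 189, 105 and 112 CPM in KO (log2 fold change 1.07, SE 0.29, edgeR adjusted p 0.041). Rian, which hosts small nucleolar RNAs, had 46.5, 71.3 and 33.4 against 126, 84.3 and 88.9 CPM (log2 fold change 0.99, SE 0.27, edgeR adjusted p 0.0476). Mirg, a microRNA host, had 0.823, 1.62 and 1.11 against 4.77, 2.46 and 2.77 CPM (log2 fold change 1.49, SE 0.38, edgeR adjusted p 0.034). In each of them KO 1 was the highest library and no KO library reached down to the controls.

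The paternally expressed genes of that cluster did not pass. Dlk1, a Notch-like membrane protein of immature cells, had 33.7, 29.7 and 13.8 CPM in controls and 67.9, 28.4 and 42.0 CPM in KO (log2 fold change 0.84, SE 0.38, edgeR adjusted p 0.198). Rtl1, a retrotransposon-derived gene, had 2.01, 1.65 and 1.14 against 3.09, 1.34 and 0.988 CPM. KO 1 was the highest library for Dlk1 and Rtl1 as well. Skeletal muscle is known to express this cluster. Among its markers, none of which was called, Acta1 stood at 33.3 CPM in KO 1, 9.45 CPM in control 2 and 0.918 to 1.596 CPM in the other 4. The sum of 4 muscle markers ranged from 1.39 to 15.3 CPM in controls and from 1.44 to 52.6 CPM in KO, and the defining factor Myod1 was at 0 in 4 of 6 libraries. Without KO 1 the log2 fold changes were 0.75 (Meg3), 0.78 (Rian) and 1.14 (Mirg), with edgeR adjusted p-values of 0.138, 0.177 and 0.150, so the 3 calls were lost. They were lost also without control 1, KO 2 or KO 3, and the part of muscle RNA in these values was not tested.

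**Figure D2:**
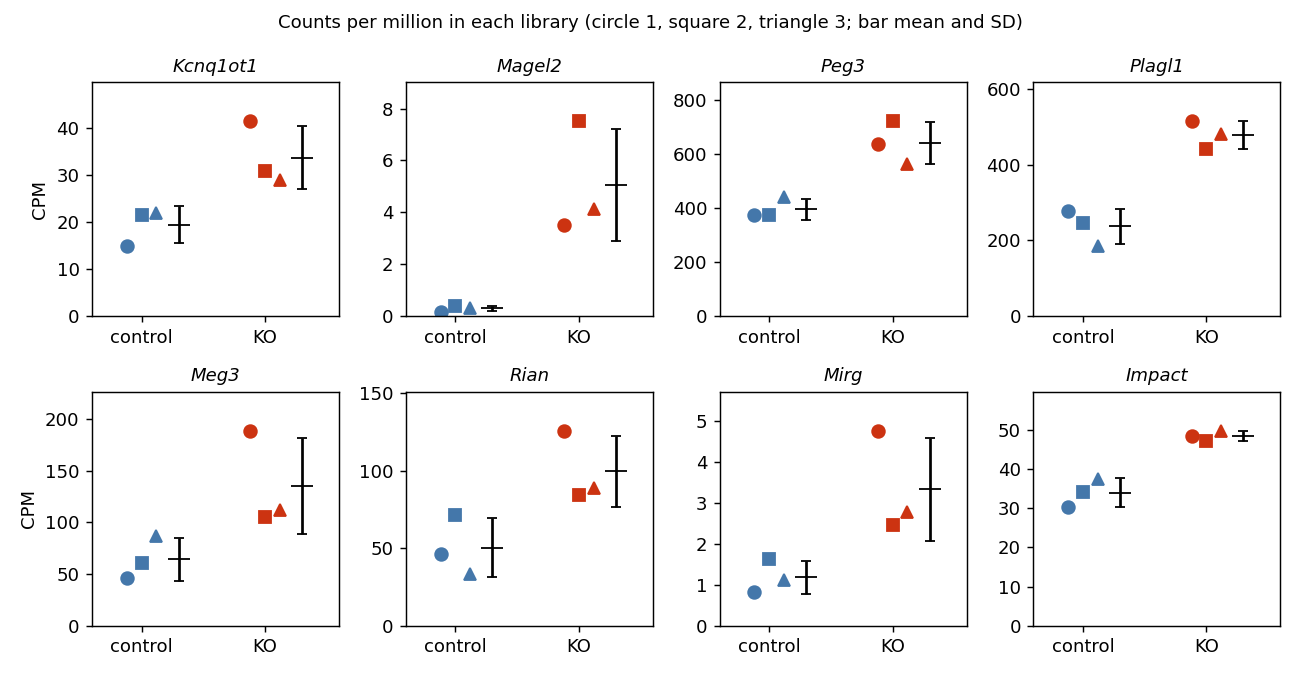
CPM (y axis, from 0) in each of the 3 control and 3 KO libraries (x axis) for the 8 members that passed the test, with the mean and SD beside the points. In every panel the 3 KO libraries lie above the 3 controls, and KO 1 is the highest for Kcnq1ot1, Plagl1, Meg3, Rian and Mirg.

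H19 and Igf2, the maternal noncoding RNA and the paternal growth factor that share an enhancer, showed no call. H19 (chr7:142575530-142578146) had 2816, 2432 and 1075 CPM in controls and 3304, 3005 and 3757 CPM in KO. Its groups did not overlap, but the low value of control 3 made the spread wide (log2 fold change 0.67, SE 0.35, edgeR adjusted p 0.259). Igf2 had 1403, 1097 and 510 CPM in controls and 1002, 939 and 1087 CPM in KO (log2 fold change 0.01, SE 0.33). Control 3 was again the lowest of the 6. Igf2r, whose product carries IGF2 to lysosomes, had 217, 190 and 186 against 202, 227 and 211 CPM (log2 fold change 0.11, SE 0.12). Airn, the antisense RNA that silences paternal Igf2r, had 9.69, 11.9 and 9.84 against 16.1, 13.5 and 12.3 CPM, wholly above the controls but not called (edgeR adjusted p 0.183).

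Other fetal growth and placental genes gave small or variable differences. Mest, an alpha/beta hydrolase of mesenchyme, had 876, 928 and 460 CPM in controls and 924, 1030 and 1068 CPM in KO (log2 fold change 0.42, SE 0.26, edgeR adjusted p 0.358). Grb10, an adaptor that dampens insulin signalling, had 605, 520 and 445 against 473, 542 and 494 CPM (log2 fold change -0.06, SE 0.16). Gnas, the stimulatory G protein alpha subunit locus, had 463, 382 and 327 against 359, 364 and 387 CPM (log2 fold change -0.08, SE 0.16). Control 3 was the lowest of all 6 libraries for 21 of the 40 members and the highest for 2. It also stood apart in marker genes: the proximal tubule transporter gene Slc34a1 was at 1532 CPM in control 3, against 430 and 407 CPM in the other controls and 65.6 to 81.8 CPM in KO. The part of such differences in the values of imprinted genes was not tested.

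The remaining tested members that lay wholly above the controls without a call were Nap1l5, a retrogene of a nucleosome assembly family (0.326 to 0.792 against 0.904 to 1.22 CPM), and Slc38a4, an amino acid transporter gene (62.9 to 107 against 119 to 140 CPM). Nnat, a small membrane proteolipid gene, had 42.3 to 75.1 against 72.8 to 97.6 CPM, with log2 fold change 0.61 and edgeR adjusted p 0.109. For Blcap, Peg10, Peg13, Mcts2, Zrsr1, Zdbf2, Inpp5f and Asb4 the estimates lay between -0.18 and 0.04 on the log2 scale. Sgce, which encodes a sarcoglycan, and Dcn, the matrix proteoglycan decorin, had estimates of 0.29 and 0.40 with overlapping groups. Exons of Nnat and Blcap, of Peg10 and Sgce and of Rtl1 and its neighbours lie close or overlap. Reads ambiguous between genes, 1.35% to 1.75% of the summed counts of a library, were left out. If the reads carry no strand, counts near such overlaps may be affected.

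By parental copy, with the same background of 6.36% higher and 8.23% lower over all genes, 5 of 24 tested paternally expressed members were higher and 0 lower, with a median log2 fold change of 0.44. Of 15 maternally expressed members, 3 were higher, all from the Dlk1-Meg3 cluster, and 0 lower, with a median of 0.26. The parental copy is the one listed as expressed, for maternal members in at least some tissues. Which copy was expressed in these kidneys was not measured. Another list, from textbook knowledge and perhaps not complete, holds 15 members with a maternal germline mark at their start or shared start region. Of these 15, 4 were higher (Peg3, Plagl1, Impact and Kcnq1ot1) and 0 lower. These counts overlap with that over all members and are no separate support. A further list of 45 imprinted genes outside the set had 37 tested, of which 1 was higher and 3 lower, at a background of 6.36% higher and 8.23% lower over all genes. These shares are not above the background, and the genes are given by name only as single values. Klf14, a transcription factor gene, rose from 3.26, 3.33 and 2.15 to 6.39, 8.23 and 9.61 CPM. The organic cation transporter gene Slc22a2 fell from 44.7, 31.6 and 122 to 3.46, 3.67 and 5.28 CPM, and the actin nucleator gene Cobl from 42.8, 34.9 and 47.9 to 20.2, 20.9 and 17.5 CPM. Slc22a2 is a gene of the proximal tubule, whose markers fell as well, and the part of cell makeup in its fall was not tested. The third to fall was Tfpi2, a protease inhibitor gene named after its value was seen (log2 fold change -1.49, SE 0.41, edgeR adjusted p 0.0443). Among 15 tested genes of imprint maintenance and DNA methylation, 1 was higher and 1 lower. The background over all genes was again 6.36% higher and 8.23% lower, so these too are given only as single values. Dnmt1 was lower, and Zfp445, a zinc finger protein that protects imprints, was higher. Zfp445 had 35.3, 42.6 and 52.6 CPM in controls and 72.5, 73.7 and 60.1 CPM in KO (log2 fold change 0.66, SE 0.16, edgeR adjusted p 0.0309). Zfp57, the other such factor, had 32.0, 37.2 and 50.9 against 48.2, 51.8 and 54.4 CPM (edgeR adjusted p 0.220).

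Most of the calls did not withstand the loss of a replicate. The number of members higher was 2 without control 1, 5 without control 2, 10 without control 3, 2 without KO 1, 2 without KO 2 and 3 without KO 3. Peg3 was lost without control 1, control 2, KO 1 or KO 2, with an edgeR adjusted p of up to 0.103, and Impact was lost without any library other than control 3, with up to 0.0970. Kcnq1ot1 and Meg3 were lost without any library other than control 3, with up to 0.147 and 0.138, and Rian and Mirg without control 1 or any KO library, with up to 0.177 and 0.150. The folds often stayed as large when a call was lost: the log2 fold change of Kcnq1ot1 was 0.89 without KO 3, that of Impact 0.53 without KO 2 and that of Mirg 1.67 without KO 2. Without control 3, Zim1 and Ube3a were added, and without control 2, Nnat. The sign of the fold change of the 8 called members was positive in each of these analyses.

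In the RRBS comparison, the question was how far methylation at imprinted loci followed the loss of Dnmt1. Methylation over the 657 imprinted positions averaged 54.2%, 53.8% and 52.2% in controls, 40.4%, 40.03% and 42.4% in KO and 53.4%, 53.7% and 53.6% in adults. The mean fell from 53.4% ± 1.07 to 41.0% ± 1.30 (SD, n = 3 each, two-sided exact permutation p 0.1, the smallest that 3 against 3 allows), and no KO library reached the controls. Other positions weighted to the same adult levels went from 55.0% ± 0.32 to 40.6% ± 2.14. The drop at imprinted positions was thus 12.4 points against 14.5 points elsewhere. The difference between them was not called (exact permutation p 0.2). If the DNA came from whole kidneys, as the protocol describes, each KO percent also includes cells that Cre does not target. The drops given here and below are therefore averages over the cells of a sample. How much methylation the targeted cells lost was not tested.

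Single positions were tested with a quasi-binomial model on methylated and unmethylated calls, called at an adjusted p under 0.05 and at least 10 percentage points. Of the 657 positions 147 were lower in KO, or 22.4%, against a background of 32.8% of all positions, and 0 were higher, against 0.0977%. By number alone, positions lower in KO were most numerous at Kcnq1 (14 of 59) and Usp29 (12 of 33). Zim1 (11 of 17), Rtl1 (11 of 18) and Peg10 (11 of 23) came next. Such counts depend on how many positions a locus holds, and Meg3 had 6 of 9.

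Whole loci with at least 5 positions numbered 32, and 24 of them were lower in KO when their calls were summed. The background was 60.7% of 21592 gene loci. None was higher, against 0.0973% of all loci, and 21 of the 32 had every KO library below every control, against 73.4%. The median difference of the 32 loci was -12.4 points and of all gene loci -10.3 points. Unlike the positions above, the loci were not matched on methylation level, so these shares and medians do not compare like with like. Among positions outside the set, the KO difference was -0.22 points at adult levels of 0% to 5% and -24.3 points at 80% to 90%. Neighbouring genes share positions, so the loci of Nnat and Blcap, Peg10 and Sgce, Igf2r and Airn, Meg3 and Rtl1, and Kcnq1 and Kcnq1ot1 are not independent.

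The 3 tested loci with the highest control levels were Zim1, Peg3 and Meg3, and they fell by 24.6, 19.5 and 26.1 points. Zim1 gave 93.1%, 93.8% and 94.3% in controls and 68.8%, 68.7% and 69.8% in KO over 17 positions. Peg3 went from 87.1%, 86.3% and 86.6% to 62.3%, 71.3% and 68.0%, and Meg3 from 79.97%, 73.2% and 81.6% to 64.1%, 45.4% and 46.9%. All 3 loci had KO libraries wholly below the controls, and adults at 92.3%, 87.0% and 72.0% were close to the controls.

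At H19 only 2 positions were measured. They read 83.6%, 85.4% and 87.0% in controls and 54.2%, 49.2% and 42.1% in KO. The single position at Mest fell from 89.3% ± 12.9 to 32.7% ± 2.45 (SD, n = 3), with as few as 10 calls in a library. Neither reached the 5 positions required for the test of loci, although their positions passed singly.

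The 8 tested loci that were not called were Kcnq1ot1, Magel2, Nnat, Dlk1, Peg13, Airn, Asb4 and Blcap. Magel2, the gene with the largest RNA increase, had 36.4%, 39.5% and 36.3% in controls, 35.5%, 32.7% and 36.6% in KO and 34.98%, 33.4% and 32.2% in adults. All of its 14 positions lay within 1 kb of its start, and its control and KO ranges overlapped. Kcnq1ot1 stood at 47.3%, 58.9% and 42.8% against 45.5%, 67.2% and 44.4% on 6 positions, none of them within 1 kb of its start. Singly, 2 of these 6 positions passed as lower in KO and 0 as higher. Asb4, a placental ubiquitin ligase adaptor gene, read 26.1%, 30.7% and 39.0% against 31.5%, 29.8% and 37.1%. In contrast, 3 of the uncalled loci had every KO library below every control. Dlk1 read 60.5%, 58.8% and 58.9% against 49.8%, 32.7% and 52.3%, Nnat 34.9%, 30.1% and 29.3% against 19.4%, 21.8% and 24.3%, and Blcap 40.5%, 34.5% and 33.2% against 21.5%, 25.8% and 23.3%. Their adjusted p-values in the quasi-binomial model were 0.248, 0.277 and 0.160. Peg13 and Airn differed by -5.67 and -3.69 points with overlapping groups.

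**Figure D3:**
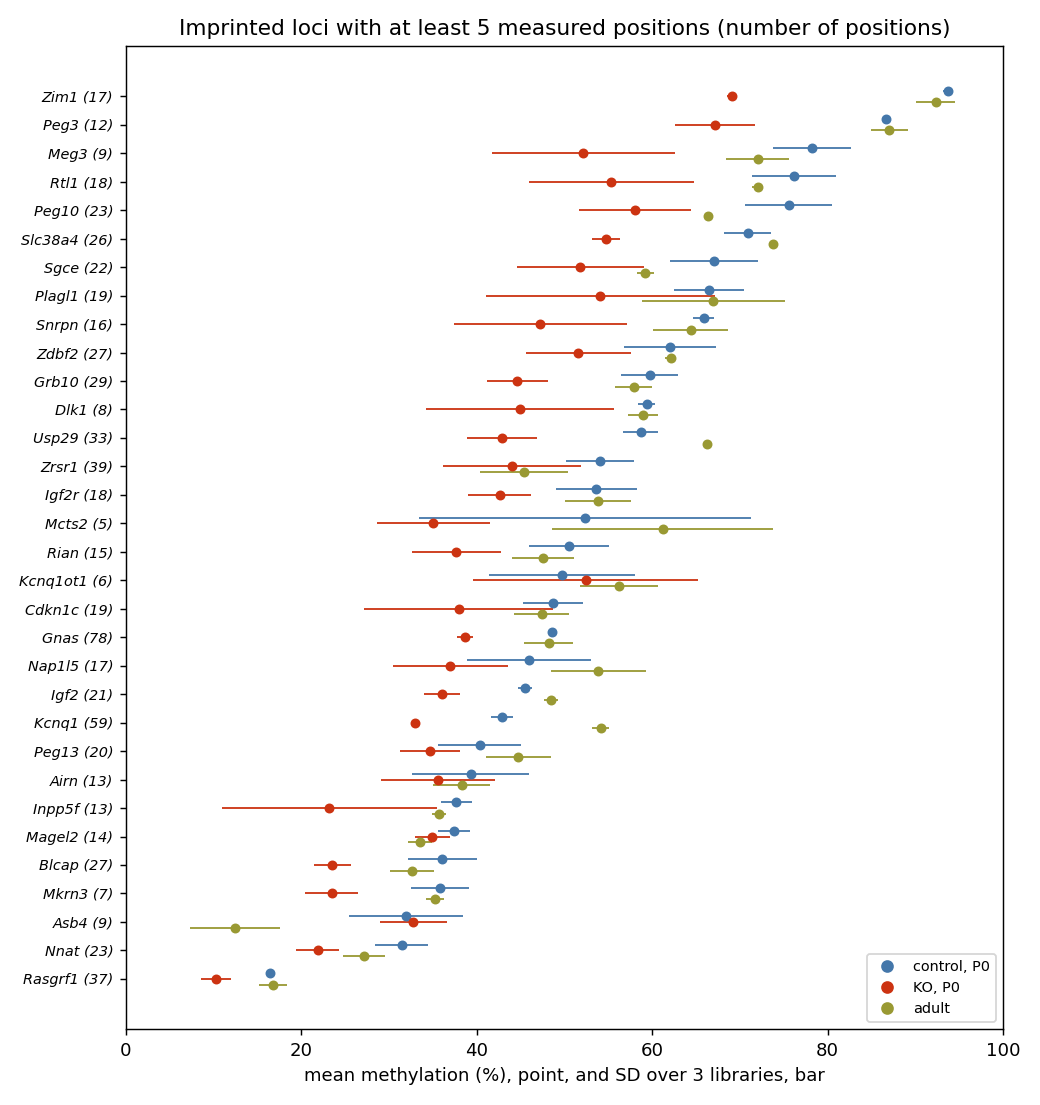
Mean methylation (x axis, percent) of the 32 imprinted loci with at least 5 positions (y axis, number of positions in brackets), as the mean and SD of 3 libraries in controls, KO and adults. KO means lie left of the controls at nearly all loci, with Kcnq1ot1 (52.4% against 49.7%) and Asb4 (32.8% against 31.9%) on the other side. The KO bars are wide at Plagl1, Kcnq1ot1, Inpp5f, Cdkn1c, Dlk1 and Meg3.

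Intermediate methylation is the known signature of an imprint control region, and 1-kb windows were therefore chosen from the adult libraries alone. A window needed at least 5 positions, an adult mean of 35% to 65% and at least 60% of its positions between 25% and 75% in adults. Of 44 windows at imprinted loci 17 met this, or 38.6%, compared with 7.70% of all 20382 windows, and this share is a description. They lay at 12 groups of members: Zdbf2, Grb10, Zrsr1, Peg13, Slc38a4, Mcts2, Nnat with Blcap, Gnas, Peg10 with Sgce, Nap1l5, Kcnq1 and Cdkn1c.

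The 146 positions of these windows averaged 57.1%, 53.8% and 51.7% in controls and 37.7%, 41.6% and 49.6% in KO. All KO libraries were below all controls, but KO 3 came close to control 3. The fall of 11.2 points (54.2% ± 2.71 to 43.0% ± 6.10, SD, n = 3 each, exact permutation p 0.1) was 20.7% of the control level. Windows of the same kind elsewhere lost 24.3%, and the difference in points between the sets gave an exact permutation p of 0.9. With a replicate left out the difference ranged from -8.56 points (without KO 1) to -14.5 points (without KO 3, the shallowest library).

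Each of the 17 windows had a KO mean below its control mean. Only 4 had every KO library below every control, against a background of 51.1% of all such windows, and 0 had every KO library above, against 1.21%. Singly, 9.59% of their positions were lower in KO, compared with 22.1% in such windows elsewhere. Control libraries also scattered more here: the median SD over controls was 8.35 points, against 4.76 points in windows elsewhere on autosomes, with a median of 7 and 6 positions and of 126 and 119 calls in the library with the fewest calls. KO 3 was the highest KO library in 11 of the 17 windows.

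The 4 windows with separate groups were in Kcnq1 (chr7:143389001-143390000), Cdkn1c (chr7:143460001-143461000), the Nnat start inside Blcap (chr2:157560001-157561000) and Gnas (chr2:174285001-174286000). The Kcnq1 window read 29.5%, 16.0% and 19.5% in controls, 5.2%, 4.2% and 5.1% in KO and 40.4%, 51.3% and 43.9% in adults. It was the window with the lowest KO mean, and it lay far from the intermediate level already in P0 controls. The Nnat window gave 79.8%, 60.5% and 61.1% against 38.8%, 39.6% and 57.6%. In Gnas the values were 51.3%, 53.5% and 47.0% against 33.4%, 37.8% and 34.3%, and in Cdkn1c 51.3%, 53.2% and 67.5% against 20.7%, 35.2% and 48.8%.

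Other windows read within or above the control range in part of the KO libraries, as averages over the cells of a sample. The Zrsr1 window that begins at the gene start (chr11:22972001-22973000) read 57.4%, 54.6% and 52.6% in controls and 39.0%, 43.7% and 55.8% in KO over 24 positions. The Peg10 and Sgce start (chr6:4747001-4748000) read 50.3%, 67.8% and 51.9% against 24.0%, 53.7% and 53.1%. In Zdbf2 (chr1:63309001-63310000) the difference was -1.1 points, with 53.5%, 49.4% and 52.7% against 46.2%, 51.6% and 54.6%. The Slc38a4 start (chr15:97055001-97056000) scattered most, from 20.6% to 71.1% among KO libraries.

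**Figure D4:**
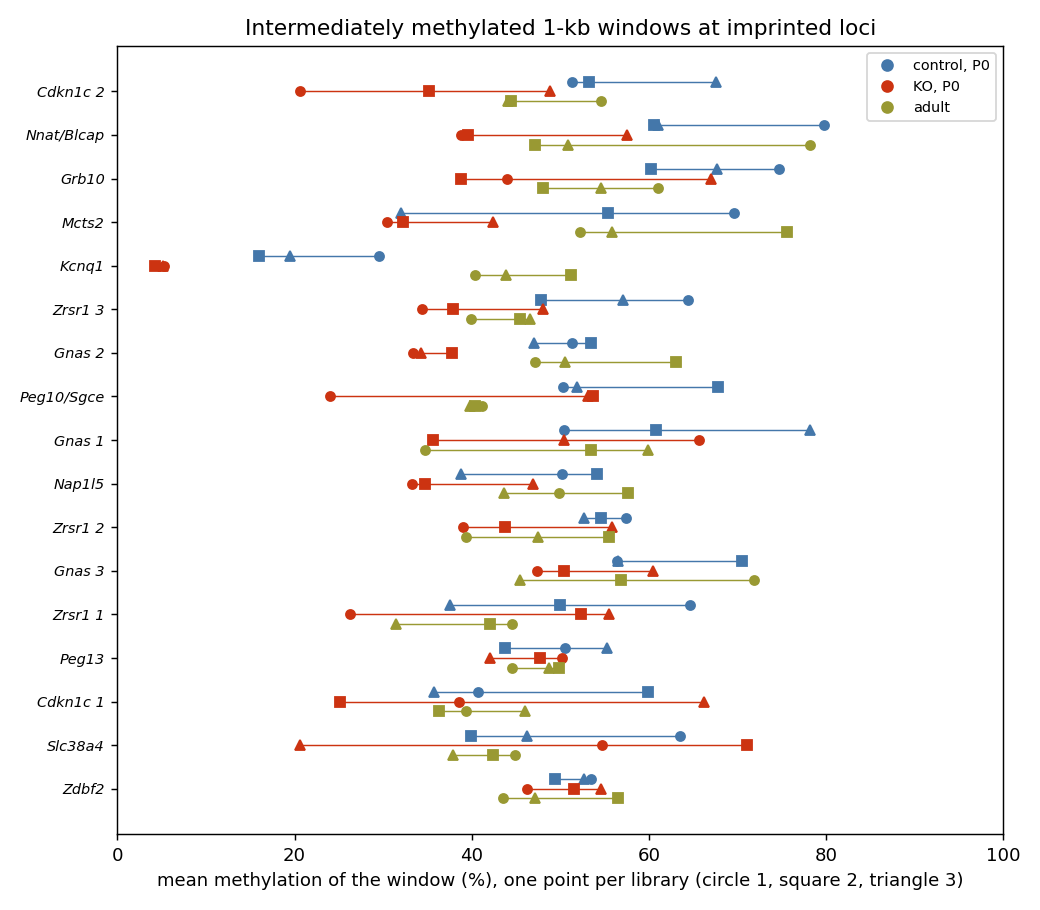
Mean methylation (x axis, percent) of the 17 intermediately methylated 1-kb windows at imprinted loci (y axis, named by locus and numbered along the chromosome where a locus has several), with each control, KO and adult library as a point and a line over the range of the 3. Control and KO lines are separate in 4 windows (Cdkn1c, Nnat with Blcap, Kcnq1 and Gnas), and KO 3, the triangle, is the highest KO library in 11.

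Starts on the list of members with a maternal germline mark could be followed at Snrpn, Plagl1, Nnat, Zrsr1, Mcts2, Nap1l5 and Airn. They held 83 positions in all within 1 kb. Their mean was 60.5%, 55.2% and 52.5% in controls, 42.5%, 40.7% and 51.8% in KO and 54.0%, 54.9% and 48.8% in adults. The KO libraries were all below the controls, again with KO 3 next to control 3 (fall of 11.1 points, exact permutation p 0.1). That difference ranged from -8.84 points without control 1 to -14.5 points without KO 3. The Snrpn starts read 49.1%, 41.0% and 51.9% against 41.0%, 40.4% and 19.6%, the reverse of the usual order in that KO 3 was the lowest. At Plagl1 the start read 67.6%, 65.4% and 72.3% against 61.3%, 40.2% and 69.9%, with overlapping groups beside an RNA increase in all 3 KO libraries. No position within 1 kb of the starts of Peg3, Usp29, Mest or Kcnq1ot1 had enough calls in all libraries, and no annotated start was used for Impact, Peg10, Sgce and Peg13.

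Starts in unmethylated CpG islands stayed near 0: Igf2, Grb10, Rasgrf1, Inpp5f and Blcap had control means between 0.41% and 1.93% and KO means between 0.22% and 2.90%. Grb10 has 2 annotated starts, and its 4 measured positions all lie at the same start. The window 971 bases from the other start averaged 67.5% in controls and 49.9% in KO, with overlapping groups. Meg3 has 2 annotated starts, and the 7 positions around them gave 82.4%, 70.02% and 83.1% in controls and 63.4%, 46.2% and 44.4% in KO, with no overlap. These are the 2 CpGs upstream of the first start, described above and not called, and 5 positions around the second start inside the gene, which read 66.0% or more in every control and from 24.6% to 85.7% in KO. The Zdbf2 starts were high, at 95.1%, 94.2% and 94.4% against 73.9%, 83.8% and 77.2%.

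RNA and methylation differences were set side by side over the 31 loci with at least 5 positions and an expression test. Spearman's rho between the log2 fold change and the methylation difference was -0.10 across loci, a description only, since neighbouring loci share positions and the RNA and DNA libraries are separate samples. The median methylation difference was -12.7 points at the 6 loci of called genes and -12.4 points at the 25 others.

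Wild-type adults were compared with P0 controls to see which imprinted loci differed with age, although age and the floxed Dnmt1 alleles cannot be told apart between these groups. The overall mean was 53.6% ± 0.14 in adults and 53.4% ± 1.07 in controls (SD, n = 3 each, exact permutation p 1.0). Of the 657 positions 24 were higher in adults, against a background of 2.26%, and 10 were lower, against 2.42%.

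Kcnq1 held 7 of the 24 higher positions. Its 59 positions averaged 43.0%, 44.1% and 41.5% in controls, 33.1%, 33.4% and 32.5% in KO and 55.3%, 53.7% and 53.5% in adults, with all 3 groups apart. Usp29 held 3, with 57.5%, 61.0% and 57.5% in controls and 66.0%, 65.9% and 66.8% in adults over its 33 positions. The shared Peg10 and Sgce start held 6 of the 10 lower positions, and its window read 41.1%, 40.3% and 39.8% in adults. Asb4 held 3, falling from the control values above to 10.4%, 8.6% and 18.2%.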

How the data were processed

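Per the submitters' processing notes, RNA reads were aligned with STAR 2.4.1d and counted with HTSeq 0.6.1, and RRBS reads were handled with Trim Galore and Bismark, on mm10/GRCm38. The strand setting and annotation release are not given in the sources used here. The authors deposited raw read counts per gene, and, per cytosine, a methylation percent with the counts of methylated and unmethylated calls. Unassigned reads were left out, of which those without a unique alignment were 13.97% to 28.01% of the summed counts of a library.

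Counts were tested in R 4.3.3 with edgeR 4.0.16 (TMM, filter on low counts, quasi-likelihood test, CPM with TMM factors), with DESeq2 1.42.0 and limma 3.58.1 voom as alternatives, all with Benjamini-Hochberg adjustment. Methylation used Python 3.11.15: a quasi-binomial model with dispersion moderated across positions and not under 1, and two-sided exact permutation tests. On simulated counts of 17290 genes the KO comparison recovered 3.13% of 1.5-fold, 20.3% of 2-fold and 87.3% of 4-fold changes. On 60000 simulated positions 49.2% of those lowered by 25 points were recovered. In both simulations a smaller share was changed than the 14.6% of genes and 32.8% of positions called in these data. The recovery rates therefore need not hold for the tests reported here. Gene positions and promoter sequences are from RefSeq tables of GRCm38.p6, which held promoters for 31 members.

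Every member could be named, with values in each library for called members and for the best-known genes. The members, gene lists and tests were chosen with earlier results of these data known. Alternatives were other scalings, count filters and tools, a replicate block, other minimum calls, position weights and regions, other dispersions, and each replicate left out in turn.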

Additional observations from a re-analysis of the deposited data

How the results depend on the processing

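The number of members higher in KO was 5 with library totals alone and 3 with the replicate block, and 2 to 10 with a replicate left out, while the number lower was 0 to 1. Same-numbered control and KO libraries did not deviate together (correlations of -0.28, -0.10 and -0.15 for RNA), so the numbers were not taken as pairs. Igf2 changed sign without the count filter (-0.015), and with a replicate left out the log2 fold changes ranged from -0.31 to 0.32 for Igf2, -0.032 to 0.24 for Snrpn, -0.16 to 0.051 for Grb10 and -0.19 to 0.053 for Gnas. Positions lower in KO numbered 68 (of 194) at a minimum of 20 calls, 292 without overdispersion, 74 with the replicate block and 90 to 135 with a replicate left out. Positions higher in KO numbered 1 at 20 calls, 8 without overdispersion and 0 to 1 with a replicate left out. Positions higher in adults numbered 10 at 20 calls, 40 at 5 calls, 73 without overdispersion, 0 with the replicate block and 10 to 19 with a replicate left out. Positions lower in adults numbered 57 without overdispersion, 0 with the replicate block, 5 at a difference of at least 25 points and 0 to 10 with a replicate left out. Loci lower in KO numbered 12 (of 18) at 20 calls and 20 to 25 with a replicate left out. The adult minus control mean turned to -0.54 points at 20 calls, -2.55 points weighted by coverage and -0.32 points in gene bodies alone, and ranged from -0.42 to 0.60 with a replicate left out. A minimum of 20 calls leaves fewer positions; the cause of the other shifts was not tested. The mean over all imprinted positions, KO minus control, ranged from -13.2 to -11.96 points with a replicate left out.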
